A study of Bos taurus with 252 samples.

Results

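TAOK1, LYST and ZKSCAN8 are 3 of the 33282 gene rows counted in bovine whole blood, and they were chosen by their measured counts, because an earlier look at these libraries placed them among the genes that fell most with the day of sampling. All 3 passed the filter on low counts, as did 19056 rows in all. The blood came from 42 crossbred steers in 7 groups of 6, and each steer gave a library on 6 occasions: at the start (day 0), early (days 3 and 7) and late (days 14, 21 and 56). On day 0, after the first blood draw, 6 of the groups received a single subcutaneous dose of an antimicrobial. These were the macrolides tulathromycin (TULA) and tildipirosin (TILD), the cephalosporin ceftiofur (CEFT), the fluoroquinolone enrofloxacin (ENRO), the phenicol florfenicol (FLOR), and oxytetracycline (OXYT), a tetracycline. The negative controls (NC) received none. Every steer, NC included, had earlier been given tildipirosin, a trenbolone acetate and estradiol implant, antiparasitic drugs and vaccines at its yard of origin. Each group was kept in its own pen, so drug and pen cannot be told apart, and the NC libraries were all sequenced on lane 1 with those of ENRO, those of TULA on lane 2, and those of CEFT and OXYT on lane 3. FLOR was split over lanes 1 and 2 (2 and 4 steers) and TILD over lanes 2 and 3 (4 and 2 steers).

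The genes belong to separate pathways. TAOK1 encodes a TAO kinase of the STE20 family, which phosphorylates the kinases upstream of p38 MAP kinase and the MST kinases of the Hippo pathway. LYST encodes the lysosomal trafficking regulator, a very large BEACH-domain protein. Its loss causes Chediak-Higashi syndrome in people and in cattle, in which neutrophils, cytotoxic cells and platelets carry giant or defective granules. ZKSCAN8 encodes a zinc finger protein with a KRAB and a SCAN domain, a family of DNA-binding proteins that mostly act on transcription.

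Library totals ran from 26.1 M to 74.1 M estimated counts (M is short for mega), with a median of 43.6 M. Levels below are in CPM, a count divided by the library size in M, with library sizes scaled by the TMM method. A total of 3 counts, taken as the floor of detection, stood at 0.0688 CPM in a library of median size, and covers counting error alone. TILD libraries were the shallowest, with a median of 33.6 M. Hemoglobin genes took a median of 0.90% of the counts, with a highest value of 25.5% in a TILD library of day 3. No 2 libraries held identical counts.

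On day 0 the TAOK1 row ranged from 0 to 65.9 CPM over the 42 steers, with a median of 42.1 CPM. On days 14, 21 and 56 its medians were all 0 CPM, and its highest values were 40.5, 42.8 and 35.9 CPM. The mean over those 3 late days was 10.5 CPM against 38.01 CPM on day 0, or 27.5% of the day 0 mean. The late mean was below day 0 in 38 of 42 steers. The days ranked in the order 0, 7, 3, 21, 56 and 14 by mean level (38.01 ± 16.2, 27.1 ± 18.6, 21.96 ± 18.2, 12.99 ± 16.4, 9.32 ± 13.9 and 9.04 ± 14.5 CPM, SD, n = 42), and neighbours in that order differed by less than their SD.

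LYST ranged on day 0 from 0 to 141.7 CPM, with a median of 72.4 CPM. Its medians on days 14, 21 and 56 were 0.80, 0.82 and 0.37 CPM, while single libraries of those days still reached 104.5, 66.7 and 57.9 CPM. The late mean was 9.90 CPM against 72.04 CPM on day 0, or 13.7%, and it was lower in 38 of 42 steers. By mean level the order was day 0 (72.04 ± 41.9 CPM), day 7 (40.3 ± 44.4 CPM), day 3 (35.8 ± 35.4 CPM), day 14 (10.97 ± 22.4 CPM), day 56 (9.43 ± 16.8 CPM) and day 21 (9.29 ± 16.6 CPM, SD, n = 42). Neighbours differed by less than their SD except days 3 and 14, whose difference was larger than the SD of day 14 and smaller than that of day 3.

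ZKSCAN8 was the least regular of the 3. It ranged from 0 to 38.01 CPM on day 0 with a median of 4.97 CPM, and its medians on days 14, 21 and 56 were 0.10, 0.06 and 0.12 CPM. The highest mean belonged to day 7 (13.2 ± 13.2 CPM), followed by day 0 (12.7 ± 13.3 CPM), day 3 (10.1 ± 11.9 CPM), day 56 (6.44 ± 11.01 CPM), day 14 (5.29 ± 10.2 CPM) and day 21 (3.91 ± 8.23 CPM). Neighbours differed by less than their SD. The late mean was 41.1% of that of day 0 and was lower in 27 of 42 steers. The fall with the day is what the 3 genes were chosen for, so these values are a description and carry no test. The SD of a day is the spread between steers, and not that of the change within a steer. On day 7, for example, TAOK1 was below its day 0 value in 30 of 42 steers and above it in 10.

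**Figure D1:**
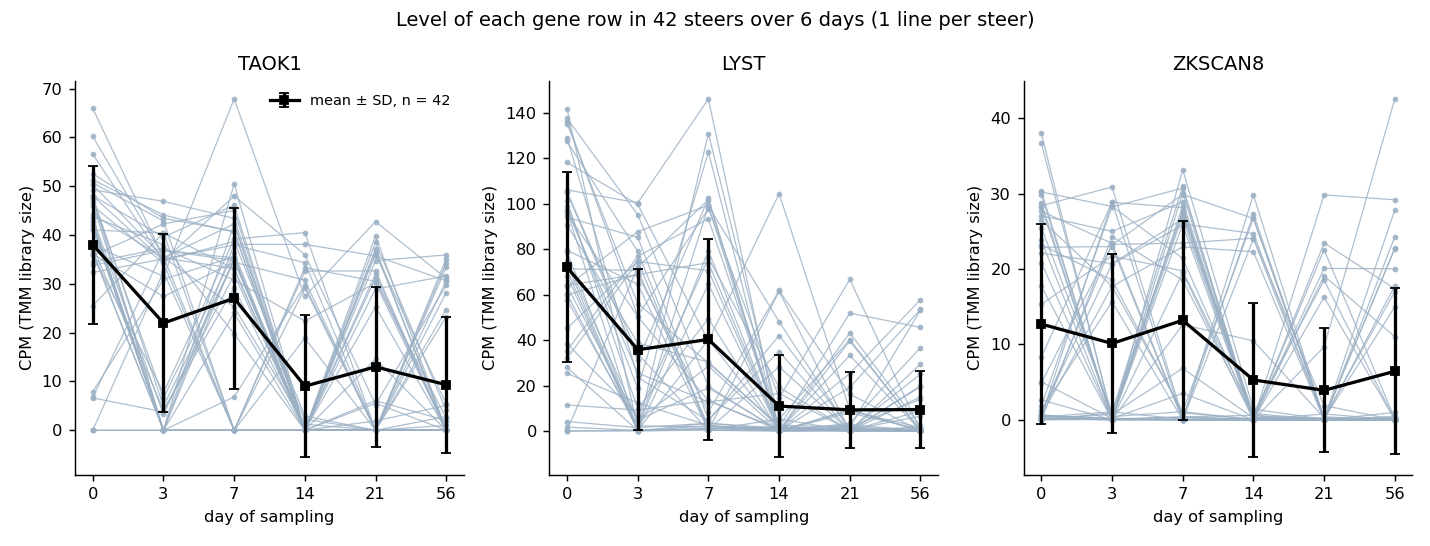
Level of TAOK1, LYST and ZKSCAN8 in CPM (vertical axis) on the 6 days of sampling (horizontal axis, equally spaced), with 1 grey line per steer and the mean ± SD of 42 steers in black. Means are lower on days 14, 21 and 56 than on day 0, and single lines move between values near 0 and high values. On day 0 the steers ranged from 0 to 65.9 CPM of TAOK1.

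Steers did not drift down gradually. The TAOK1 row held 0 counts in 98 of all libraries, and its lowest value above 0 was 41 counts (1.02 CPM). It was at 10 CPM or more in 130 libraries, so 24 lay in between. LYST was below 1 CPM in 91 libraries and at 10 CPM or more in 116, and ZKSCAN8 was below 1 CPM in 151 and at 10 CPM or more in 86. TAOK1 fell at every step from day 0 to day 56 in 0 steers, LYST in 2 and ZKSCAN8 in 0. From 1 sampling day to the next, TAOK1 crossed 1 CPM downward 54 times and upward 34 times, and 30 of 42 steers returned above 1 CPM after a value below it. For LYST the crossings were 56 downward and 33 upward with 29 steers returning, and for ZKSCAN8 50 and 36 with 27 steers returning. Day accounted for 29.6% of the variance of TAOK1 in CPM, 34.6% of that of LYST and 9.22% of that of ZKSCAN8. The share of the steer was 18.3%, 15.6% and 14.3%. Most of the variance of TAOK1 and ZKSCAN8 (52.1% and 76.5%) and 49.7% of that of LYST lay within steers and was not shared by the day.

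Each gene had a row that ran opposite to it. For TAOK1 this was row rna-NR_129531.1, a transcript of the microRNA gene MIR4523, which lies inside TAOK1 in the RefSeq annotation of assembly ARS-UCD2.0. Pearson's r between the CPM of both rows was -0.90 over all libraries after centring each group and day. For ZKSCAN8 it was ZNF389, the adjacent zinc finger gene on the same chromosome, at r = -0.88. For LYST it was TRNAR-CCU-24, an arginine tRNA row, at r = -0.81. RefSeq lists an arginine tRNA gene of that anticodon next after LYST in gene order, but the numbered row could not be matched to that gene, so its position is not given here. With log2 CPM centred per steer, the same rows were the lowest of 13802 rows of at least 1 CPM on average (r = -0.76, -0.62 and -0.80 for TAOK1, LYST and ZKSCAN8). These are descriptions over libraries that share steers and lanes, and carry no p-value. Within the 3 lanes, centred likewise by group and day, r ran from -0.89 to -0.92 for TAOK1, from -0.75 to -0.86 for LYST and from -0.87 to -0.90 for ZKSCAN8.

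In no library were a gene and its opposite row both below 1 CPM. In the 98 libraries in which TAOK1 was below 1 CPM, the NR_129531.1 row was at 14.0 CPM or more. In the 91 libraries with LYST below 1 CPM, TRNAR-CCU-24 was at 38.5 CPM or more, and in the 151 with ZKSCAN8 below 1 CPM, ZNF389 was at 23.8 CPM or more. Conversely, TAOK1 was at 10 CPM or more with the NR_129531.1 row below 1 CPM in 86 libraries, and both were at 10 CPM or more in 7. LYST and ZKSCAN8 had no such converse: their opposite rows were below 1 CPM in 0 libraries, and both rows were at 10 CPM or more in 91 libraries for LYST and in 83 for ZKSCAN8. The separate row named MIR4523 stayed at a median of 0.043 CPM, and a separate row named TRNAR-CCU at 0.159 CPM. Neither ran opposite: centred by group and day, r was 0.12 for MIR4523 with TAOK1 and 0.095 for TRNAR-CCU with LYST. The library kit selects polyadenylated RNA, which mature microRNAs and tRNAs are not. The authors' counts were derived from transcripts assembled by StringTie, and genes that overlap can share reads in that step. The paper also describes a later step for ambiguous gene identifications. In RefSeq only the opposite row of TAOK1 overlaps its gene. ZNF389 lies beside ZKSCAN8, and TRNAR-CCU-24 could not be placed. How far either step moved reads or gene names between the rows, as against a change in either transcript, was not tested. A value of a single row is uncertain to that extent. None of the steps used here separates reads by strand.

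**Figure D2:**
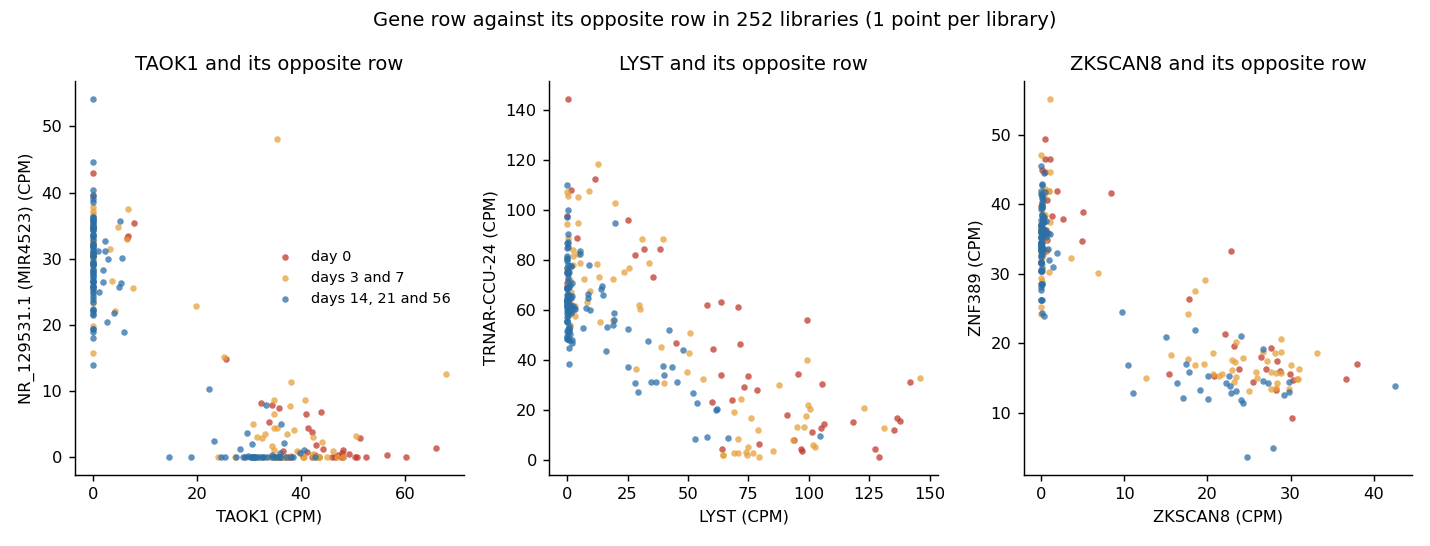
Each library as 1 point, with the gene row on the horizontal axis and its opposite row on the vertical axis, both in CPM, coloured by day 0, days 3 and 7, or days 14, 21 and 56. The corner near 0 on both axes is empty, with no library below 1 CPM in both rows. TAOK1 has points along both axes, while the opposite rows of LYST and ZKSCAN8 are never below 1 CPM.

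Adding the counts of a gene and its opposite row gave levels with far less spread, and the choice to add them was made after their values were seen. The TAOK1 sum ranged from 34.8 to 67.2 CPM on day 0 (median 44.1) and from 13.96 to 54.2 CPM over days 14, 21 and 56. Its mean fell from 45.05 to 30.9 CPM, or to 68.6% of day 0, and was lower in 42 of 42 steers. The LYST sum went from 116.0 to 69.6 CPM, or to 60.01%, and was lower in 40 of 42 steers. The ZKSCAN8 sum went from 42.03 to 35.5 CPM, or to 84.5%, and was lower in 37 of 42 steers. On the log2 scale (prior count 2) the rows alone changed by -5.33 ± 2.94 for TAOK1, -5.07 ± 3.52 for LYST and -3.10 ± 3.87 for ZKSCAN8. The sums changed by -0.56 ± 0.26, -0.74 ± 0.29 and -0.24 ± 0.23 (SD, n = 42). Many late values of the rows alone were 0 or near it, where the size of a log2 change depends on the prior count.

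By day, the TAOK1 sum was below its day 0 value in 42 of 42 steers on day 3, in 33 on day 7 and in 41 on each of days 14, 21 and 56. The LYST sum was below it in 33 and 36 steers on days 3 and 7 and in 40, 42 and 41 on the late days. The ZKSCAN8 sum was below it in 33 and 21 steers on days 3 and 7 and in 34, 38 and 36 on the late days. On day 7 the ZKSCAN8 sum was thus higher in as many steers as it was lower, with a mean difference of -0.05 ± 0.29 on the log2 scale. Day took 34.2%, 44.003% and 19.7% of the variance of the TAOK1, LYST and ZKSCAN8 sums.

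The opposite rows had higher or similar means on the late days. The NR_129531.1 row went from a mean of 7.04 CPM on day 0 to 20.4 CPM on the late days, and its late mean was below day 0 in 8 of 42 steers. TRNAR-CCU-24 went from 43.9 to 59.7 CPM and was below day 0 in 13. ZNF389 went from 29.3 to 30.3 CPM and was below day 0 in 23. The gene's share of the sum had a day 0 median of 98.2% for TAOK1, 71.7% for LYST and 11.9% for ZKSCAN8. On day 56 those medians were 0%, 0.47% and 0.33%.

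**Figure D3:**
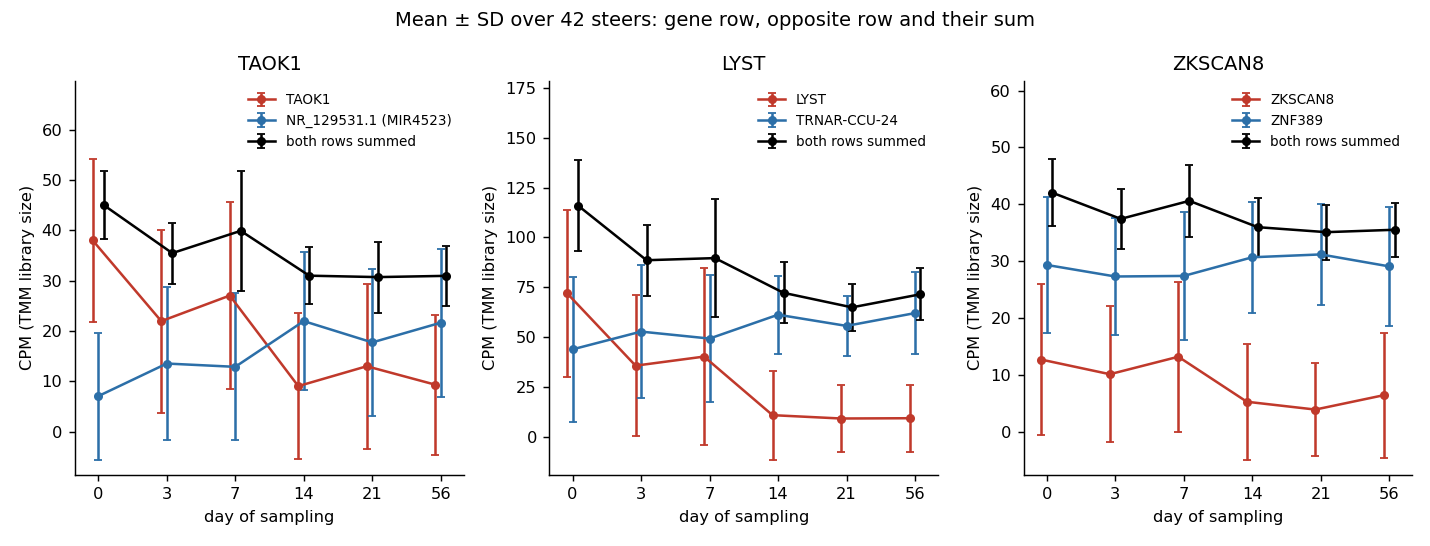
Mean ± SD over 42 steers of each gene row, its opposite row and their sum, in CPM (vertical axis), on the 6 days of sampling (horizontal axis). The gene rows decline from 38.01, 72.04 and 12.7 CPM on day 0, the sums decline less, and the SD of the sums (6.78, 22.7 and 5.87 CPM on day 0) is smaller than that of the gene rows (16.2, 41.9 and 13.3 CPM).

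The lower late level was seen within each lane. The TAOK1 sum averaged 45.003, 47.03 and 43.1 CPM on day 0 on lanes 1, 2 and 3, and 31.7, 30.4 and 30.8 CPM on day 56. The LYST sum averaged 112.0, 117.3 and 118.6 CPM on day 0 and 76.1, 73.9 and 64.6 CPM on day 56. The ZKSCAN8 sum averaged 39.3, 45.1 and 41.7 CPM on day 0 and 34.3, 34.6 and 37.7 CPM on day 56. For the rows alone, TAOK1 and LYST were lower on day 56 than on day 0 on the 3 lanes, while ZKSCAN8 went from 13.7 to 2.45 CPM on lane 1, from 17.9 to 4.25 CPM on lane 2 and from 6.53 to 12.6 CPM on lane 3.

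The same held group by group. Among the 6 NC steers, which received no antimicrobial, TAOK1 went from 38.4 ± 9.93 CPM on day 0 to a late mean of 13.4 ± 7.82 CPM, and LYST from 85.3 ± 41.9 to 13.4 ± 6.27 CPM (SD, n = 6). The TAOK1 sum had a lower late mean in 6 of 6 steers of all 7 groups, with mean log2 changes between -0.45 (OXYT) and -0.68 (TILD). For the LYST sum these lay between -0.57 (ENRO) and -0.92 (CEFT), with 5 of 6 steers lower in ENRO and in FLOR and 6 of 6 in the other 5 groups. For the ZKSCAN8 sum they lay between -0.13 (OXYT) and -0.36 (TILD). The ZKSCAN8 row was lower in 2 of 6 CEFT steers, whose mean went from 4.95 ± 9.44 to 9.43 ± 6.44 CPM. In TILD it was at 1 CPM or more in 4 of 6 libraries on day 0 and in 0 of 18 late ones. In NC, 4 of 6 day 0 libraries and 3 of 18 late libraries reached 1 CPM.

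Whether the drugs moved the genes is a separate question that the choice of the genes did not use. In edgeR's quasi-likelihood test of each treatment against NC within each day, with Benjamini-Hochberg adjustment over all tested genes and a threshold of 0.1, the 3 genes passed in 2 of 108 tests. Over all genes 0.699% of the tests passed. At an unadjusted p below 0.05 there were 1, 7 and 7 of 36 tests for TAOK1, LYST and ZKSCAN8. The share of all genes at that unadjusted p is not given here, so whether these counts are high was not tested. All tests of a day share the same NC steers, and the 36 include tests of blood drawn before the dose.

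ZKSCAN8 was lower in CEFT than in NC on day 3. The CEFT libraries ran from 0 to 0.225 CPM with a median of 0.071 CPM, and the NC libraries from 0.099 to 28.8 CPM with a median of 19.2 CPM. The groups overlapped, because 2 of the 6 NC steers were also below 1 CPM. CEFT was already low on day 0, before the dose, with a median of 0.378 CPM and 4 of 6 libraries below 1 CPM. NC then had a median of 15.2 CPM and 2 of 6 libraries below 1 CPM. The day 0 difference did not pass (log2 fold change -1.57, adjusted p = 0.918, edgeR). Nor did the change of CEFT from day 0 against NC (adjusted p = 0.123, edgeR). On day 3 the log2 fold change was -7.39 (adjusted p = 0.0229, edgeR), in a comparison in which 10.9% of all genes passed. The CEFT levels lay near the floor of 0.0688 CPM, so the size of this fold change is uncertain. CEFT sat on lane 3 and NC on lane 1. When lane was added to a model of the 7 groups, the log2 difference was -8.08 and the call was lost (adjusted p = 0.4999, edgeR), and after ComBat_seq by lane it was -6.81 and the call held (adjusted p = 0.00456, edgeR). ZNF389 was at 24.1 to 41.4 CPM in CEFT and at 13.5 to 41.9 CPM in NC. The ZKSCAN8 sum had medians of 33.3 CPM in CEFT and 40.5 CPM in NC, and it passed in 0 of 36 tests (smallest adjusted p = 0.279, and 0 of 36 at an unadjusted p below 0.05).

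LYST was lower in TILD than in NC on day 3. The TILD libraries ran from 0 to 4.71 CPM (median 0.108) and the NC libraries from 9.22 to 87.8 CPM (median 28.3), without overlap. The log2 fold change was -4.80 (adjusted p = 0.0546, edgeR), where 3.14% of all genes passed. Without NC steer 12, NC steer 7, TILD steer 10 or TILD steer 5 the adjusted p was between 0.103 and 0.121 and the call was lost. It was also lost with lane as a term (-5.73, adjusted p = 0.661, edgeR) and after ComBat_seq by lane (-4.10, adjusted p = 0.533, edgeR). TRNAR-CCU-24 was alike in both, with medians of 77.5 CPM in TILD and 77.95 CPM in NC. In OXYT on day 3 the balance was turned the other way. There TRNAR-CCU-24 was lower than in NC (log2 fold change -2.27, adjusted p = 0.0375, edgeR), and LYST ran from 68.8 to 99.7 CPM (log2 fold change 1.24, adjusted p = 0.141, edgeR).

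The TAOK1 row passed in 0 of 36 tests with edgeR. Its CEFT libraries of day 56 all held 0 counts, which at 3 counts over the group is at least 1091-fold below the NC mean of 13.1 ± 16.8 CPM (SD, n = 6), but 2 of the 6 NC libraries were also at 0 (adjusted p = 0.948, edgeR). With DESeq2 that comparison passed (adjusted p = 0.0297). The NR_129531.1 row of the same CEFT libraries ran from 18.04 to 54.2 CPM.

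The sums of the rows differed from NC on day 3 in 3 comparisons. The LYST sum ran from 61.6 to 88.6 CPM in FLOR (median 74.8) and from 99.0 to 119.6 CPM in NC (median 114.8), without overlap. Its log2 fold change was -0.57 (adjusted p = 0.0141, edgeR), where 2.65% of all genes passed. In CEFT the LYST sum ran from 58.2 to 99.5 CPM (median 74.3), with 1 steer inside the NC range, and the log2 fold change was -0.58 (adjusted p = 0.0423, where 11% of all genes passed). Without NC steer 12 the adjusted p was 0.103. The TAOK1 sum ran from 26.2 to 35.3 CPM in TILD and from 36.8 to 46.9 CPM in NC, without overlap, at a log2 fold change of -0.39 (adjusted p = 0.0700, where 3.2% passed). That call was lost on leaving out any of 7 of the 12 steers in turn (NC12, NC13, NC15, NC7, TILD10, TILD2 or TILD5), with adjusted p between 0.103 and 0.150. Over the 36 comparisons, the sums passed in 2 for LYST, 1 for TAOK1 and 0 for ZKSCAN8, and 0.699% of all tests passed. The LYST sum had a lower mean than NC on day 3 in the other 4 groups too, with medians of 92.8 (ENRO), 93.9 (OXYT), 78.7 (TILD) and 78.1 CPM (TULA), none of which passed. Since NC sat on lane 1 alone, lane and drug cannot be told apart for CEFT and TILD, and in a fit of all 42 libraries of the day with lane as a term 0 of these calls remained. The log2 differences were then -0.63 for the LYST sum in FLOR, -0.79 for it in CEFT and -0.43 for the TAOK1 sum in TILD (adjusted p = 0.357, 0.456 and 0.712, edgeR). After ComBat_seq by lane the LYST sum in FLOR still passed (-0.47, adjusted p = 0.0578, edgeR), and the other 2 did not.

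**Figure D4:**
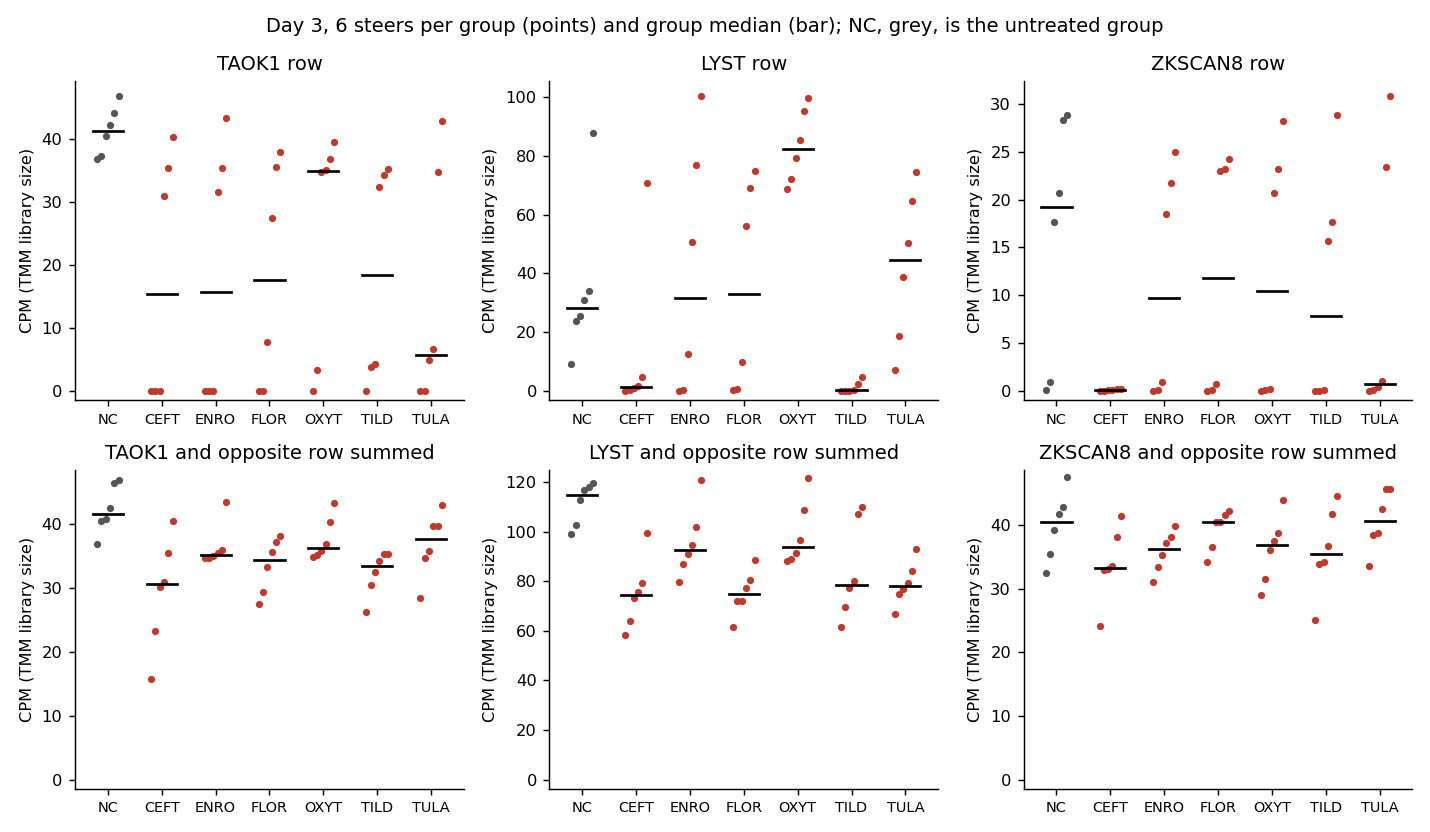
Level in CPM (vertical axis) on day 3 of each gene row (top) and of its sum with the opposite row (bottom) in the 7 groups of 6 steers (horizontal axis), with points for steers and bars for medians. NC, in grey, is at 99.0 to 119.6 CPM for the LYST sum, above all 6 FLOR steers, and all 6 CEFT steers are at 0.225 CPM or less for ZKSCAN8.

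Other measures also differed from NC on day 3, in groups with and without a sum that passed. Of 43 genes with very long mRNAs, 21 were lower in CEFT than in NC, 9 in FLOR and 9 in TILD, with 0 higher in each. In ENRO 13 and in OXYT 14 of them were lower, and in TULA 0, though no sum passed in these groups. Over all genes, higher or lower, 10.9% passed in CEFT, 2.65% in FLOR (rows summed) and 3.14% in TILD. For ENRO, OXYT and TULA that share is not given here. The summed level of the 43 genes ran from 4477 to 5772 CPM in NC and from 3189 to 4223 CPM in CEFT. It ran from 3730 to 4769 CPM in FLOR and from 3567 to 4945 CPM in TILD. In ENRO it ran from 3785 to 4139 CPM and in OXYT from 3539 to 4062 CPM. Markers of blood cells mostly did not pass. In CEFT 3 of 14 T cell markers and 1 of 13 neutrophil markers were lower. In FLOR 1 of 10 B cell markers was higher, and in TILD 1 of 13 neutrophil markers was higher. These are to be read against the same shares of all genes. In ENRO and in OXYT 2 of 13 neutrophil markers were higher. In OXYT 3 of 14 T cell markers and 1 of 13 erythroid markers were lower. In TULA no marker passed. The summed neutrophil markers ran from 2506 to 3704 CPM in NC and from 3394 to 4981 CPM in TILD. They ran from 3942 to 6286 CPM in ENRO and from 3378 to 5198 CPM in OXYT. Whether these measures have a part in the lower sums was not tested.

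Over all days together, in a limma voom fit with the steer as a random block, the genes passed in 0 of 18 comparisons with NC at an adjusted p of 0.05, where 1.97% of all tests passed. Their smallest adjusted p was 0.616, and 0 of 18 had an unadjusted p below 0.05. The fitted differences ran from -3.33 for TAOK1 to -0.08 for ZKSCAN8 on the log2 scale, all against the same 6 NC steers, with standard errors such as 3.77 for TAOK1 in CEFT. With the rows summed, LYST in CEFT was lower than in NC by a log2 difference of -0.38 ± 0.12 (SE, adjusted p = 0.0441, limma), against 1.95% of tests over all genes. With RLE size factors its adjusted p was 0.0501, and after ComBat_seq by lane the difference was -0.18 (adjusted p = 0.99998, limma). CEFT sat on lane 3 and NC on lane 1. The other 17 did not pass. The nearest was the LYST sum in TILD, at -0.31 ± 0.12 (SE, adjusted p = 0.0931).

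The change from day 0 did not differ detectably between any drug and NC. In edgeR's test of the 5 treatment-by-day terms with the steer as a fixed block, the genes passed in 0 of 18 comparisons at an adjusted p of 0.05, where 2.98% of all tests passed. The smallest adjusted p was 0.123, for ZKSCAN8 in CEFT, and 1 of 18 had an unadjusted p below 0.05. With the rows summed 0 of 18 passed as well, against 3.07% of all tests. The smallest adjusted p was then 0.0808 (TAOK1 in CEFT, edgeR), and 4 of 18 had an unadjusted p below 0.05. For neither count at an unadjusted p is the share of all genes given here, and every comparison used the same NC steers. Whether these counts are high was not tested.

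The 3 gene rows were only loosely tied to each other. Over all libraries Pearson's r of log2 CPM was 0.39 between TAOK1 and LYST, 0.36 between TAOK1 and ZKSCAN8 and 0.37 between LYST and ZKSCAN8. Centred within each group and day, r was 0.15, 0.25 and 0.16. After that centring, r of the share of the sum that each gene held was 0.05, 0.17 and 0.20. The sums, in contrast, moved together. Their r over all libraries was 0.79 for TAOK1 with LYST, 0.76 for TAOK1 with ZKSCAN8 and 0.56 for LYST with ZKSCAN8, and within group and day 0.61, 0.71 and 0.43. On day 0 alone (n = 42) these were 0.35, 0.67 and 0.13. All points share library depth and scaling, and 6 points come from each steer.

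By the likeness of their values within steers (r of log2 CPM centred per steer, all libraries), the rows nearest to TAOK1 were KDM7A (r = 0.57), which encodes a histone demethylase, NFKBIZ (0.57), an inducible regulator of NF-kB, TRAPPC10 (0.56), a subunit of a vesicle tethering complex, ANKRD12 (0.56) and PCF11 (0.56), a factor of mRNA 3' end processing. Nearest to LYST were MTSS1 (0.63), ATRN (0.61), the transcription factor ZEB2 (0.61), KIAA1109 (0.60) and PPARGC1B (0.60), a coactivator of metabolic genes. Nearest to ZKSCAN8 were the peptidase DPP8 (0.59), PWWP2A (0.59), MYSM1 (0.58), a histone H2A deubiquitinase, KIAA1109 (0.58) and OGT (0.58), the O-GlcNAc transferase. After the 3 opposite rows, the lowest were RND2 (-0.57) and TPRG1L (-0.56) for TAOK1, IDH3G (-0.62) and KLHDC3 (-0.62) for LYST, and ZMAT5 (-0.59) and ARL2 (-0.58) for ZKSCAN8. The median r over all 13802 rows was -0.01 for TAOK1 and for LYST. The genes in these 15 highest places were lower on the late days, as was ZEB2, from 157.0 CPM on day 0 to 91.5, 95.6 and 93.9 CPM on days 14, 21 and 56. Centring per steer keeps the differences between days, and the 3 genes were chosen for their fall with the day. A lower late level of the genes most like them therefore follows largely from that choice and is no separate result. KIAA1109 stood among the nearest of both LYST and ZKSCAN8, at 74.3 CPM on day 0 and 45.9, 43.4 and 45.1 CPM on the late days.

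Genes that work with the 3 were compared between the late days and day 0 in 1 fit of all libraries with the steer as a block (edgeR, adjusted p of 0.05). Over all genes 36.9% were higher and 34.4% lower, with a median log2 change of 0.02. With library totals in place of TMM the split of higher to lower went from 51.7% and 48.3% of the called genes to 41.1% and 58.9%.

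Of 26 tested genes of the Hippo pathway and the TAO kinases, 15 were lower and 7 higher, with a median log2 change of -0.35. The other TAO kinases moved apart: TAOK3 was lower (-0.30, adjusted p = 2.4e-19) and TAOK2 higher (0.14, adjusted p = 1.3e-09). The MST kinases STK3 (-0.60) and STK4 (-0.41), which TAO kinases phosphorylate, were lower, as was their partner SAV1 (-0.42). Also lower were the downstream kinases LATS1 (-0.66) and LATS2 (-0.36), and the LATS activators MOB1A (-0.37) and MOB1B (-0.38). These members were named after their values were seen. Of the 7 genes that were higher, only TAOK2 is named here. The largest changes were those of TEAD1, a DNA-binding partner of the Hippo effectors, which stood at only 0.185 CPM on day 0 (-1.001), of WWC2 (-0.90, from 7.13 ± 1.64 CPM to 3.91 CPM on day 56), of MAP4K3 (-0.76) and of STK38L (-0.72). Of 21 genes of the p38 cascade, 10 were lower and 7 higher (median -0.08). MAPK11 (0.84) and MAPK12 (0.76), both p38 kinases, were higher at levels near 1 CPM, and TAB2 (-0.53) and TAB3 (-0.53), adaptors of the kinase TAK1, were lower.

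Of the 8 other BEACH-domain genes, 4 were lower, 1 higher and 3 did not pass (median -0.17). WDFY3, which serves selective autophagy, was lower by the most (-1.09), from 82.02 ± 25.8 CPM on day 0 to 37.7, 36.2 and 41.9 CPM on days 14, 21 and 56. NBEAL1 (-0.74) and LRBA (-0.40), the latter needed to recycle CTLA4, were lower, and WDR81 was higher (0.25). Of 36 genes of lysosome-related organelles and granule release, 16 were higher and 16 lower (median -0.03). STX11 (-0.64), a syntaxin of cytotoxic granule release, MYO5A (-0.54), a myosin that carries melanosomes, and BLOC1S6 (-0.73) were lower, and SYTL1 (0.55) was higher. For ZKSCAN8, 17 of 32 tested SCAN-domain zinc finger genes were higher and 6 lower (median 0.10), led by ZNF445 (-1.06), MZF1 (0.62), ZSCAN2 (0.60) and ZNF213 (0.54). ZNF445 was itself below 1 CPM in 78 libraries and at 10 CPM or more in 148, with an opposite row, ZNF852, at r = -0.84 within group and day, so its value is uncertain in the same way as those of the 3 genes. With library totals in place of TMM, 12 were higher and 9 lower.

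The listed genes with very long mRNAs and the ribosomal protein genes mostly went opposite ways. Transcript lengths were not analysed, so this holds for the listed genes only. Of 43 genes with very long mRNAs 39 were lower and 1 higher (median -0.43), among them NF1 (-0.99), DMXL2 (-0.95), KMT2D (-0.94) and KMT2C (-0.81, from 110.6 ± 22.6 to 65.96 CPM on day 56). Of 75 ribosomal protein genes 53 were higher and 8 lower (median 0.37), such as RPS29 (0.67), RPS14 (0.64) and RPL36 (0.59), with RPS3A lower (-0.64). The mean log2 CPM of the very long mRNAs had r = 0.73, 0.74 and 0.68 with the TAOK1, LYST and ZKSCAN8 sums over all libraries, and 0.55, 0.54 and 0.59 within group and day. With the gene's share of the sum it was 0.21, 0.29 and 0.35 within group and day.

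**Figure D5:**
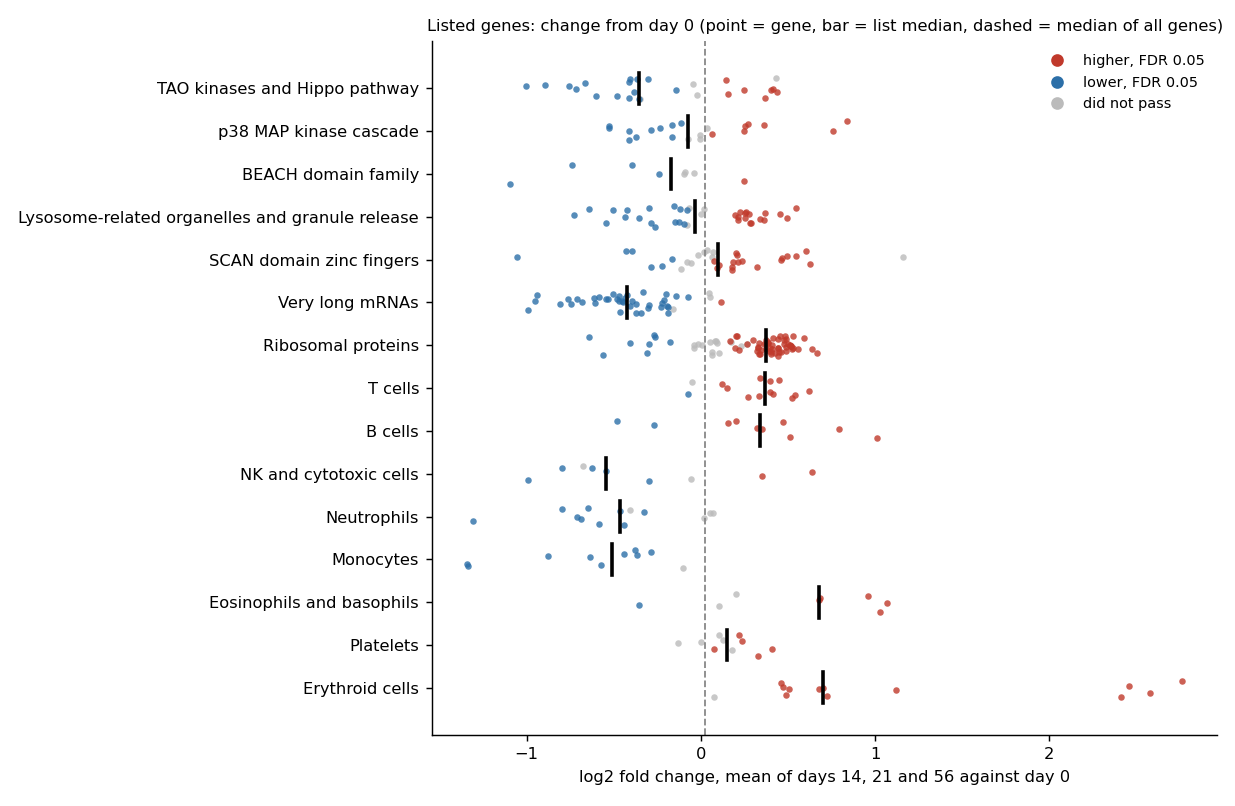
Log2 fold change of the mean of days 14, 21 and 56 against day 0 (horizontal axis) for each gene of 15 lists (vertical axis), with red for higher, blue for lower and grey for genes that did not pass, a bar at the median of each list and a dashed line at the median of all genes. Of the very long mRNAs 39 of 43 are lower, and 53 of 75 ribosomal protein genes are higher.

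Markers of blood cells changed over the same days. Fewer cells of a type and less RNA per cell cannot be told apart in whole blood. Of 10 monocyte markers 9 were lower and 0 higher (VCAN -1.34, CD163 -1.33, CD14 -0.88), with a summed level of 2110 to 6917 CPM on day 0 and 1432 to 3978 CPM on day 56. Of 13 neutrophil markers 9 were lower and 0 higher (ALPL -1.31, S100A8 -0.80, S100A12 -0.71, S100A9 -0.69), with 2454 to 7289 CPM on day 0 and 1982 to 5665 CPM on day 56, and CSF3R, FPR1 and FPR2 gave no value here. Of 9 NK and cytotoxic markers 5 were lower and 2 higher (KLRD1 -0.99, GZMA -0.80, KLRB1 -0.63, GZMB 0.64), with 390 to 2513 CPM and 347 to 1016 CPM.

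Higher on the late days were 12 of 14 T cell markers (CD3E 0.62, CD247 0.54, CD3D 0.52, CD5 0.45) with 1 lower, from a summed 2206 to 4753 CPM on day 0 to 3027 to 5979 CPM on day 56. Of 10 B cell markers 8 were higher and 2 lower (BLK 1.01, VPREB3 0.79, CD79B 0.51, PAX5 -0.48), with 1026 to 2617 CPM and 1525 to 3313 CPM. Of 8 eosinophil and basophil markers 5 were higher and 1 lower (PRG3 1.07, GATA1 1.03, IL5RA 0.96, CPA3 0.68), with 385 to 1305 CPM and 303 to 1044 CPM. Their summed level went the other way, with a median of 661 CPM on day 0 and 571, 546 and 615 CPM on days 14, 21 and 56. EPX, PRG2 and CLC gave no value here. Of 10 platelet markers 5 were higher and 0 lower (GP1BA 0.33, PF4 0.23, GP6 0.22), with 390 to 2511 CPM and 433 to 2320 CPM. Of 13 erythroid markers 12 were higher and 0 lower (HBA1 2.76, HBA 2.58, HBB 2.46, ALAS2 2.41), with 180 to 39426 CPM and 445 to 133617 CPM. The median sum of the erythroid markers was 2467 CPM on day 0, 32105 CPM on day 14, 35605 CPM on day 21 and 3604 CPM on day 56.

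Within group and day, the LYST sum had r = 0.30 with the monocyte markers, 0.16 with the neutrophil markers and -0.20 with the T cell markers. The TAOK1 sum had 0.07, -0.11 and -0.23, and the ZKSCAN8 sum -0.20, -0.31 and -0.10. With the log2 library total the 3 sums had r = 0.12, 0.05 and 0.04. The part of blood cell makeup in the fall of the 3 genes was not tested.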

How the data were processed

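Whole blood was drawn into PAXgene tubes, and the authors sequenced stranded mRNA libraries as 150 base pairs from both ends. Per the labels and the methods, reads were trimmed with Trimmomatic 0.39, aligned with HISAT2 to the bovine assembly ARS-UCD1.3 and assembled with StringTie 2.2.0. Ambiguous gene identifications were then handled by the authors in a further step. The deposited values are estimated counts, which the authors derived from transcript coverage. They are whole numbers and were not normalized. Whether counting used strand is not given in the sources used here.

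Rows above 0.2 CPM in at least 12 of 252 libraries (19056) were tested in R 4.3.3 with edgeR 4.0.16 (TMM, quasi-likelihood) and limma 3.58.1 (voom). DESeq2 1.42.0 and ComBat_seq (sva 3.50.0) were alternatives. Log2 CPM used a prior count of 2. Each of the 6 days was a sample of the same steer. The deviations of a steer's libraries from their group means correlated within steers (median r = 0.34, against -0.08 between steers of a group, and above 0.1 in 42 of 42 steers), so the steer was the block wherever days were compared. The steers of a group shared 1 pen, so p-values measure the spread between steers of 1 pen.

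The 3 genes and all lists of genes were chosen with earlier results of these data known. Genes named beside them are, by a written rule, the 5 rows of mean CPM of at least 1 with the highest and the 3 with the lowest correlation with each gene, and from each list up to 4 genes past the test with the largest change. Further TAO kinases and Hippo pathway genes (kinases, SAV1, MOB1A and MOB1B) were named after their values were seen. So were TRNAR-CCU-24 and ZNF389 beside single comparisons. Rows were summed after their values were seen. The tests were tested on simulated counts. RefSeq gene names and gene order come from assembly ARS-UCD2.0, which is not the build of the counts, so no coordinates are given. Promoter motifs, sequences and transcript lengths were not analysed here.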

Additional observations from a re-analysis of the deposited data

Results flagged for a closer look

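Outlying steers were looked for with Dixon's test in 51 groups of 6, namely the log2 change from day 0 of each gene row and sum in each treatment, and the day 3 levels of the comparisons that passed. It flagged 6 of the 51. Chance flags about 1 in 20 groups of normally distributed values. That rate does not hold for the gene rows, whose values were mostly either near 0 or high.

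In CEFT, steer 3 rose in TAOK1 by 2.77 on the log2 scale from day 0 to the late days, while the other 5 steers lay between -9.85 and -6.59. LYST had 1 such steer in each of 3 groups: steer 4 of CEFT (4.202, the others from -7.31 to -3.54), steer 10 of ENRO (5.26, the others from -6.52 to -4.18) and steer 1 of OXYT (5.59, the others from -8.42 to -5.06). On day 0 the gene stood at 0 CPM in the first 3 of these steers and at 0.284 CPM in the last, and their late means were 4.86, 0.803, 16.2 and 33.1 CPM. In the TAOK1 sum, steer 6 of ENRO was lowest at -1.16, with the others from -0.53 to -0.17. On day 3, steer 12 of NC held 87.8 CPM of LYST and the other 5 NC steers 9.22 to 33.99 CPM, which is the group that the TILD comparison of LYST rests on.

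In the levels of single days, 9 of 42 groups met the same criterion for TAOK1, 15 for LYST and 15 for ZKSCAN8, against 6, 1 and 1 for their sums. The change from day 0 passed the test of a difference from NC in 0 comparisons, and in 0 pairs of groups did every steer of one rise and every steer of the other fall.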

How the results depend on the processing

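Of the tests of single days, 2 passed for the gene rows, against 6 with DESeq2, 4 after ComBat_seq by lane with a likelihood ratio test, and 0 with lane as a term. The calls after ComBat_seq included TAOK1 in TULA on day 0, in blood drawn before the dose (log2 fold change 0.97, adjusted p = 0.0260, edgeR likelihood ratio test). With lane as a term the log2 differences were -8.08 for ZKSCAN8 in CEFT (adjusted p = 0.4999), -5.73 for LYST in TILD (0.661), -0.79 and -0.63 for the LYST sum in CEFT and FLOR (0.456 and 0.357) and -0.43 for the TAOK1 sum in TILD (0.712). After ComBat_seq, LYST in TILD was at -4.10 (0.533), the LYST sum in CEFT at -0.41 (0.339) on day 3 and -0.18 (0.99998) over all days, and the TAOK1 sum in TILD at -0.27 (0.811). ZKSCAN8 in CEFT (-6.81, 0.00456) and the LYST sum in FLOR (-0.47, 0.0578) still passed. The TAOK1 sum in TILD was at -0.41 (0.109) with no filter, and the LYST sum in CEFT over all days at -0.37 (0.0501) with RLE size factors. The cause was not tested. Leaving out 1 steer in turn gave -7.93 to -7.12 for ZKSCAN8 in CEFT, -6.03 to -4.29 for LYST in TILD, -0.67 to -0.51 and -0.62 to -0.52 for the LYST sum in CEFT and FLOR, and -0.43 to -0.33 for the TAOK1 sum in TILD.

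Summing rows gave 1 call in place of 0 over all days, changed the late difference of TAOK1 and LYST to -0.56 and -0.74, and gave correlations of 0.61, 0.71 and 0.43 in place of 0.15, 0.25 and 0.16. Library totals moved the share of higher genes among those called to 41.1%, and platelet markers higher from 5 to 1. Without the replicate block of the steer, the gene rows kept 0 of 18 calls in both fits over days, B cell markers higher went from 8 to 5 and platelet markers higher from 5 to 1. Over all genes 20.9% in place of 1.97% of the tests passed over all days without the block, and 0.464% in place of 2.98% for the change from day 0. Within days, 0.157% passed with no filter, 2.98% with DESeq2, 0.197% after ComBat_seq and 0.106% with lane as a term, in place of 0.699%. Over all days, 5.90% passed with no filter and 0.126% after ComBat_seq. A level below 3 counts was not detectable at these depths.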

Other observations

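Rows near 0 in some libraries and abundant in others were not limited to the 3 genes. Of the 19056 rows tested, 189 (0.99%) were below 1 CPM in at least 26 libraries and at 10 CPM or more in at least 26. The 189 include the 3 genes and the NR_129531.1 row. They also include rows with steady counts over the days, such as LOC100337108, below 1 CPM in 20 libraries on each day. How many of them switched within steers was not tested. Of the 189, 116 were below 1 CPM in more libraries per late day than on day 0 and 61 in fewer. An opposite row at r of -0.7 or lower within group and day was found for 41 of the 189 (21.7%), and for 2156 of the other 18867 rows (11.4%). Of the 41 opposite rows, 19 overlapped the gene in the RefSeq table, 11 lay within 5 genes of it, 11 could not be placed and 0 lay elsewhere. These thresholds were chosen after the 3 genes had been seen, and the counts are a description.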
